A study of Mus musculus with 72 samples.

Results

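The effect of RC-3095 (RC) alone on RNA levels was measured in a pair of mouse melanoma cell lines that carry the gastrin-releasing peptide receptor, 1064 and 1014-Grpr. The comparison holds 12 of the 72 libraries of the series, taken as all libraries labelled 1064 or 1014-Grpr that received either 1 µM RC or mock treatment with 0.1% DMSO, with 3 replicates in each of the 4 groups. DMSO is given for the mock libraries and not for the RC libraries, so a difference in vehicle cannot be told apart from RC. The cells were starved for 18 h in 0.5% fetal calf serum and treated for 4 h in the same medium, with no receptor agonist added. Both lines come from female mice. Line 1064 carries Tyr::NRASQ61K/°, lacks Cdkn2a (Cdkn2a-/-) and has lost Cdh1, the gene of E-cadherin, through the melanocyte-directed Cre Tyr::CreA/° (Cdh1dF/dF), and it expresses Grpr from its own gene. Line 1014-Grpr carries Tyr::NRASQ61K/° and CMV::Grpr/tGFP, a plasmid in which a viral promoter drives murine Grpr together with a green fluorescent protein, kept by antibiotic selection. The paper counts line 1014 among its lines that express E-cadherin. A further set of 6 libraries, RC and mock of 1014-Ctrl (Tyr::NRASQ61K/°;CMV::tGFP), which has the plasmid without the receptor, was used as the control without receptor. The labels do not say that replicates are separate cultures, so p-values measure only the spread between these libraries.

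GRPR is a receptor of the bombesin family that signals mainly through Gq, phospholipase C, calcium and protein kinase C, and from there to ERK and to SRF, AP-1 and CREB. Its ligand GRP is made in the lung among other tissues. Within minutes to hours such signals raise immediate early genes, among them the FOS, EGR and NR4A transcription factors, and later their targets. RC is a peptide antagonist that occupies the receptor in place of GRP. The question of the comparison is what the antagonist does to transcription when no GRP is added, which is the reference against which its action on GRP-treated cells is read.

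The 12 libraries held between 19512882 and 32668855 counted reads, and 3 counts, taken as the floor of detection, correspond to at most 0.154 CPM. Levels below are in CPM, a gene's count scaled to the normalised total of its library. Summed CPM of the melanocyte lineage markers ranged from 12012 to 38204, whereas the endothelial, fibroblast, keratinocyte and leukocyte lists summed to at most 37.3 CPM in any of the 12 libraries. In 1064, replicate 3 stood apart from the others in its response. The log2 ratio of RC to mock correlated across 8056 genes at r = 0.72 between replicate pairs 1 and 2, but at −0.33 and −0.38 between pair 3 and the others, and the pair ratios had an SD across genes of 0.209, 0.251 and 0.0963 in pairs 1, 2 and 3. In 1014-Grpr the same SDs were 0.0878, 0.0858 and 0.0921. Its pairs correlated only weakly across 8253 genes, at r = 0.20 for pairs 1 and 2, 0.27 for 2 and 3 and 0.04 for 1 and 3. In 1014-Ctrl, pairs 1 and 3 correlated at 0.10, with SDs of 0.0860 and 0.0802. The correlations are across genes measured in the same libraries, not across independent units, and serve as a description. Fits of 1064 without replicate 3 are also given below. That replicate was left out after its response was seen, so their p-values and counts describe pairs 1 and 2 alone. In 1014-Ctrl, the library labelled mock replicate 2 held 48.1 CPM of Grpr and 64.3 CPM of the Y-linked Ddx3y, both with 0 counts in the other 5 libraries of that line, so replicate 2 of 1014-Ctrl was left out unless stated otherwise.

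The receptor itself was described first. In 1064, Grpr (chrX:163513904-163549677, minus strand, GRCm38) stood at 952, 1273 and 780 CPM in mock replicates 1 to 3 and at 781, 837 and 852 CPM after RC. The groups overlapped, with a lower level after RC in pairs 1 and 2 and a higher level in pair 3. The log2 fold change was −0.25 ± 0.11 (SE, n = 3 pairs; edgeR quasi-likelihood test, adjusted p = 0.372), and −0.45 without replicate 3 (adjusted p = 0.00274). In 1014-Grpr, Grpr stood at 127, 108 and 141 CPM in mock and at 138, 144 and 182 CPM after RC, a rise in each of the 3 pairs. Counts of the plasmid and of the endogenous gene cannot be told apart here, and the level was 0.31 ± 0.04 higher on the log2 scale when the line was fitted alone (adjusted p = 2.7e-05). In both lines, Brs3, the orphan receptor of the family, and Grp were not detected, and Nmbr had at most 4 counts in any library. Nmb, the ligand of NMBR, was between 0.372 and 1.41 CPM in all 12 libraries and did not pass the test in either line. Of the bombesin family, Grpr was thus the only receptor gene above a handful of counts in these libraries.

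With both lines in 1 fit and replicate number as a block within each line, no gene passed an adjusted p of 0.05 in either line by edgeR, whatever its fold change. The share of genes called was thus 0% of 13253 tested in 1064 and 0% of 13328 tested in 1014-Grpr. At an unadjusted p of 0.05 there were 1791 genes in 1064 (13.5%) and 333 in 1014-Grpr (2.50%). DESeq2 with the same block called 25 genes at that adjusted p in 1064 and 0 in 1014-Grpr. Among the 25 were Mki67, Top2a, Mcm3, Mcm5, Mcm7, Mxd3, Neil3 and Kif22, all lower, and Neat1, Pak3 and Pgf, all higher. These names were taken after their values were seen. The common dispersion, the squared coefficient of variation between libraries beyond counting error, was 0.00726 in 1064 and 0.000642 in 1014-Grpr when each line was fitted alone. The joint fit shares 1 estimate between them, so each line was also examined alone. Fitted alone, 1064 again had 0 genes at adjusted p under 0.05 (797 at unadjusted p under 0.05, 0 by DESeq2), and 1014-Grpr had 132, of which 103 were higher and 29 lower after RC. That is 0.990% of the genes tested, 0.773% higher and 0.218% lower, and 0.0225% with an absolute log2 fold change above 1 as well (0.00750% higher and 0.0150% lower). DESeq2 on the same 6 libraries called 35, all 35 among the 132. The 1014-Grpr genes below passed in the fit of that line alone and not in the joint fit, where their adjusted p was 0.999, and they were chosen after their values were seen.

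The changes in 1014-Grpr were small. The median log2 fold change was 0.18 among the 103 higher genes, and the median fall among the 29 lower ones was 0.22, with 9 and 8 genes beyond 0.5. In 102 of the 103 genes RC was above mock in all 3 pairs, where 1598 of the 13328 genes tested were, and in 29 of 29 it was below, where 2372 were (17.8%). All 3 RC libraries lay above all 3 mock libraries for 21 of the 103 genes (1.71% of all genes tested), and below for 16 of the 29 (2.90%). The calls were made on these same libraries, so nothing is read from these shares. Only Nr4a3, Slc23a4 and the predicted gene Gm10222 passed an absolute log2 fold change of 1.

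In 1014-Grpr, 6 of the 30 tested immediate early genes rose when the line was fitted alone (0.773% of all genes did) and 0 in the joint fit. Nr4a3 (chr4:48045153-48086447, plus strand), an orphan nuclear receptor and early response gene, was at 4.81, 4.95 and 2.21 CPM in mock and at 10.3, 10.4 and 6.16 CPM after RC. The groups did not overlap, and the log2 fold change was 1.18 ± 0.11 (adjusted p = 6.13e-07). Egr3, a zinc finger factor of the EGR family, stood at 6.38, 4.89 and 4.1 CPM in mock and at 12.8, 7.06 and 8.36 CPM after RC, again without overlap (0.87 ± 0.11, adjusted p = 2.7e-05). Egr2 was lower and more variable, at 0.818, 0.668 and 1.99 CPM in mock against 1.36, 1.11 and 3.82 CPM, so that the groups overlapped although each pair rose (0.85 ± 0.21, adjusted p = 0.0473). Fosl2 rose from 42.9, 36.4 and 34.3 CPM to 49, 45.3 and 45.6 CPM (0.32 ± 0.05, adjusted p = 0.000192). Fos and Mafk, AP-1 and small MAF factors, rose by 0.22 and 0.20 on the log2 scale. Of the 32 genes of the list, 30 were tested, 28 lay above 0, and none fell at an adjusted p of 0.05. The lowest value was −0.09, and the median log2 fold change was 0.12 against 0.00 for all genes. At an unadjusted p of 0.05, 17 of the 30 were higher and 0 lower, where 5.74% of all genes were higher.

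**Figure D1:**
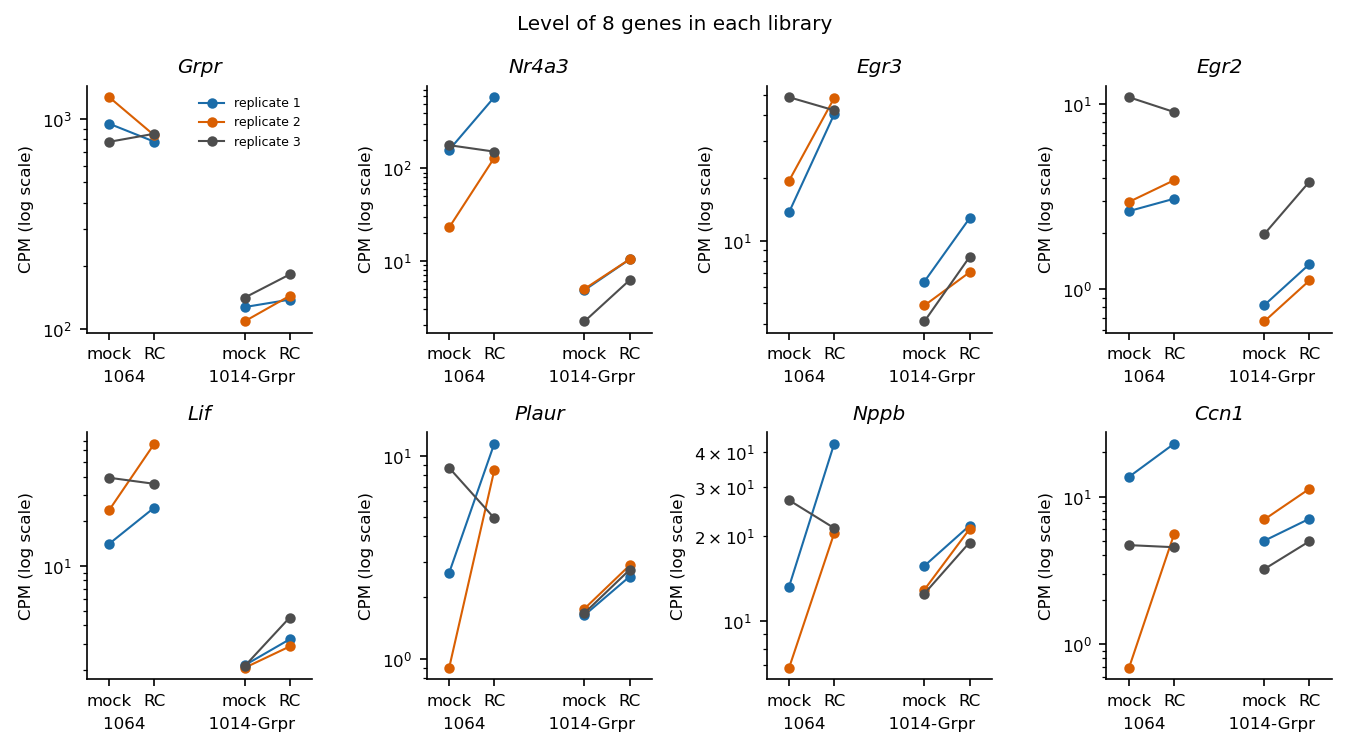
Level of 8 genes in each library, in CPM on a log scale, for mock and RC in 1064 (left pair of each panel) and 1014-Grpr (right pair); each line joins the mock and RC library of 1 replicate number. In 1014-Grpr all 3 lines rise in every panel, and in 1064 replicates 1 and 2 rise in the panels other than Grpr, whereas replicate 3 is level or falls; Nr4a3, for example, goes from 178 to 152 CPM in that replicate.

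Of the 14 tested Gq and calcium response genes, 3 rose when the line was fitted alone and 0 fell, where 0.773% and 0.218% of all genes did, and 0 passed in the joint fit. Nppb, a natriuretic peptide, was at 15.7, 12.9 and 12.5 CPM in mock and at 21.8, 21.2 and 19 CPM after RC, with no overlap (0.61 ± 0.07, adjusted p = 6.73e-06). Lif, a cytokine of the IL-6 family, rose from 2.15, 2.07 and 2.12 CPM to 3.22, 2.88 and 4.5 CPM (0.73 ± 0.16, adjusted p = 0.0194). Plaur, the urokinase receptor, rose from 1.64, 1.76 and 1.68 CPM to 2.53, 2.88 and 2.74 CPM (0.69 ± 0.17, adjusted p = 0.0491). For these 3 genes every RC library lay above every mock library. Of 28 listed Gq and calcium response genes, 14 were tested, and 13 of them lay above 0, with a median log2 fold change of 0.30. Many listed genes were too low to test. Ptgs2, the inducible cyclooxygenase, was at most 0.0882 CPM in the 6 libraries.

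In the groups that follow, counts of genes that rose or fell stand against 0.773% and 0.218% of all genes tested. Among CREB targets, Crem, a cAMP-responsive transcription factor, rose by 0.25 ± 0.05 and Pde10a, a cyclic nucleotide phosphodiesterase, by 0.45 ± 0.06, while Cited2 fell by 0.18 on the log2 scale (19 tested, median 0.12). Of the 20 ERK feedback genes, Spry4, a Sprouty inhibitor of ERK signalling, rose by 0.17 and the ETS factor Etv1 fell by 0.16, with a median of 0.06. Actg1, Cnn2 and Actb, of the actin cytoskeleton, rose by 0.20, 0.20 and 0.11 (13 SRF and actin genes tested, median 0.09). Of the 20 tested cholesterol synthesis genes 3 rose, among them Insig1, a regulator of SREBP processing, by 0.14, and 17 lay above 0 with a median of 0.06. Among the 18 tested YAP/TAZ targets only Ccn1, a matricellular protein, rose, from 5.01, 6.99 and 3.22 CPM to 7.07, 11.3 and 4.97 CPM (0.63 ± 0.10, adjusted p = 0.00104), and the list's median was −0.01. Ddit3 and Herpud1 of the unfolded protein response rose by 0.19 and 0.14 (22 tested, median 0.07). Tnfaip2, an NF-kappaB target, rose by 0.48 (12 tested, median 0.05). Pfkfb3, an activator of glycolysis, rose by 0.25, but only 6 of the 17 tested hypoxia and glycolysis genes lay above 0. The median of that list was −0.01, with 3 genes higher and 3 lower at an unadjusted p of 0.05. Cdkn1a, the cyclin-dependent kinase inhibitor p21, rose by 0.20, whereas Trp53inp1 and Sesn1 of the same p53 list fell by 0.29 and 0.25 (10 tested, median 0.05).

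Among the 29 genes that fell, Ccng2, an unconventional cyclin, went from 20.5, 24.4 and 23.4 CPM to 17.1, 18.6 and 19 CPM (−0.31 ± 0.06, adjusted p = 0.00553). Txnip, the thioredoxin-binding protein, differed far more between replicates than between treatments, with 56, 72.1 and 181 CPM in mock against 43.8, 58.4 and 169 CPM, and it fell in each pair (−0.22 ± 0.04, adjusted p = 0.00321). Pik3ip1, an inhibitor of PI3-kinase, fell by 0.22 with no overlap of groups. Predicted gene models made up 8 of the 29 lower genes and 0 of the 103 higher ones. Of the mitochondrially encoded genes, mt-Co2 and mt-Co3 rose by 0.32 and 0.46, although neither level exceeded 25.2 CPM in these libraries and 11 of 13 tested genes of the list lay above 0 with a median of 0.05. All genes of the mitochondrial genome together held 2.17% to 2.81% of counted reads in the libraries of 1014-Grpr, so the levels of mt-Co2 and mt-Co3 were low within that set. In polyA-selected RNA mitochondrial transcripts are captured only in part, and mt-Co3 shares exon sequence with mt-Atp6. Reads that match several places in the genome were not examined, for these genes or for the predicted models. In the melanocyte pigment list, Slc24a5 rose by 0.12 (14 tested, median 0.02). None of the 26 DNA replication and mitosis genes passed in 1014-Grpr, and their median was 0.00.

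RefSeq's GRCm38.p6 table gave the 250 bases before the start site for 77 of the 103 higher genes. The letters of the AP-1 site, TGANTCA, were found on either strand in 8 of them (10.4%), against 498 of 9792 tested genes with a promoter (5.09%) and 7.82% of all promoters. The CRE, TGACGTCA, was in 2 (2.60%, against 3.17% of tested genes and 1.77% of all). GGAATG, bound by TEAD factors, was in 16 (20.8%, against 12.7% and 14.4%), and the sterol element TCACNCCAC in 1 (1.30%, against 1.27% and 1.22%). The letters of these motifs do not overlap one another in the stretches shown. A match is a description of letters and not of binding, and no test was made. Shown are the matches of the called Gq-response genes Lif and Plaur, of Ddit3, and of Mcam, a gene whose response differed from that in 1014-Ctrl (given further on), each on the gene's strand with the motif in capitals.
Lif, AP-1 letters, chr11:4257318-4257386, plus strand: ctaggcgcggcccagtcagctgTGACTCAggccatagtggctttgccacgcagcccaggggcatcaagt
Plaur, AP-1 letters, chr7:24462374-24462460, plus strand: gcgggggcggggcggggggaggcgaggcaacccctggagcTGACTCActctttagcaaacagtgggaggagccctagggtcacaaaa
Ddit3, AP-1 letters, chr10:127290543-127290597, plus strand: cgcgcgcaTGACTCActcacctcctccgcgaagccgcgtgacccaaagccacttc
Mcam, CRE letters, chr9:44134589-44134657, plus strand: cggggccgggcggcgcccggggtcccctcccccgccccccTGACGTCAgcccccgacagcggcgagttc

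In 1064, Nr4a3 stood at 158, 22.9 and 178 CPM in mock and at 588, 130 and 152 CPM after RC. It was higher by 1.89 and 2.50 on the log2 scale in pairs 1 and 2 and lower by 0.23 in pair 3. In the joint fit the log2 fold change was 1.34 ± 0.39 (adjusted p = 0.289), and without replicate 3 it was 2.15 (adjusted p = 5.95e-07). Egr3 stood at 13.7, 19.4 and 48.9 CPM in mock and at 40.5, 48.5 and 42.3 CPM after RC (0.83 ± 0.27, adjusted p = 0.303), so its mock level in replicate 3 was above its levels after RC. Nppb was at 13.3, 6.83 and 26.9 CPM in mock and at 42.6, 20.5 and 21.4 CPM after RC (0.90 ± 0.31, adjusted p = 0.303). Plaur was at 2.64, 0.9 and 8.71 CPM in mock against 11.4, 8.46 and 4.92 CPM (1.10 ± 0.53, adjusted p = 0.399). Sphk1, the sphingosine kinase, was at 112, 249 and 411 CPM in mock against 382, 773 and 364 CPM (1.09 ± 0.30, adjusted p = 0.284). For each of these 5 genes the groups overlapped, and in replicate 3 the mock library was above the RC library. Of the other immediate early genes named in 1014-Grpr, Fosl2, Fos, Mafk and Egr2 gave 0.64, 0.55, 0.30 and 0.04 in the joint fit.

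The immediate early, Gq and calcium, and SRF and actin lists showed the same split between pairs. For the 31 tested immediate early genes of 1064, the median log2 ratio was 0.56, 0.57 and −0.09 in pairs 1, 2 and 3. For the 15 tested Gq and calcium response genes it was 0.79, 1.20 and −0.20, and for the 14 SRF and actin genes 0.52, 0.68 and −0.14. In the joint fit the medians were 0.33, 0.58 and 0.37, with 19, 10 and 11 genes higher and 1, 0 and 0 lower at an unadjusted p of 0.05 (6.24% and 7.27% of all genes tested) and 0 at an adjusted one. Without replicate 3, on 2 pairs, 1656 genes passed an adjusted p of 0.05 in 1064 (12.4% of 13376 tested), 959 higher and 697 lower, and 103 with an absolute log2 fold change above 1 as well (0.770%; 0.621% higher and 0.150% lower). Of the 959, RC was above mock in replicate 3 for 122, where it was above for 5359 of all 13376 genes. Of the 697 it was below mock in replicate 3 for 272. The lists then had 22 of 31, 14 of 15 and 11 of 14 members higher at an adjusted p of 0.05. A result of 1064 that involves these groups therefore rests on replicates 1 and 2. Replicate 3 was left out because its response went against theirs, so the calls made without it were in part fixed by that choice.

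**Figure D2:**
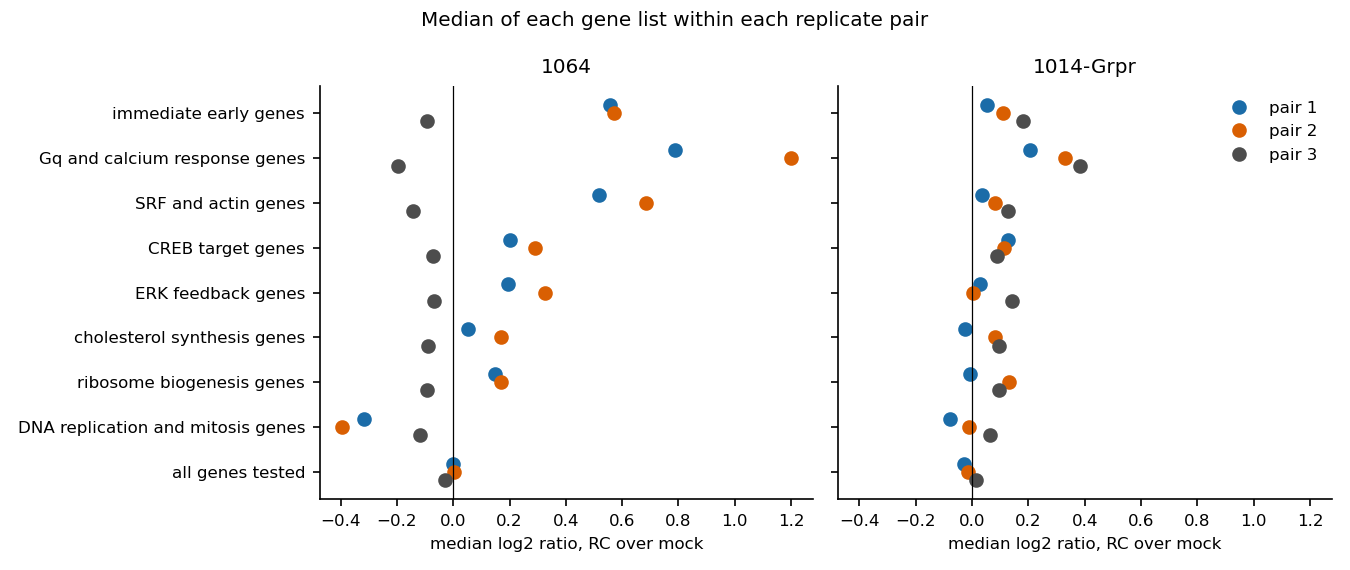
Median log2 ratio of RC to mock over the tested genes of 8 lists and over all genes tested, within each replicate pair (points; colours give the pair), in 1064 (left) and 1014-Grpr (right). In 1064 pairs 1 and 2 lie to the right of pair 3 for the signalling lists, as in the Gq and calcium list with 0.79 and 1.20 against −0.20, while in 1014-Grpr that list lies at 0.21, 0.33 and 0.38.

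DNA replication and mitosis genes were lower in all pairs of 1064 as a median. The median log2 ratio of the 26 genes was −0.32, −0.39 and −0.12 in pairs 1, 2 and 3, and 21 of the 26 were lower in all 3 pairs (80.8%, against 16.8% of all genes tested). The joint fit gave a median of −0.31, with 20 of 26 lower at an unadjusted p of 0.05 (7.27% of all genes) and none at an adjusted one. Mki67, a marker of cycling cells, stood at 213, 48.8 and 26.6 CPM in mock and at 140, 29.8 and 24.4 CPM after RC (−0.50 ± 0.09, adjusted p = 0.267 by edgeR and 0.00241 by DESeq2). Mcm5, of the replicative helicase, was at 111, 25.4 and 25.6 CPM in mock against 82.5, 18.5 and 22.5 CPM (−0.36 ± 0.06, adjusted p = 0.206). The mock libraries alone thus spanned a wider range than the treatment. Pcna, the sliding clamp, and Cdk1 gave log2 fold changes of −0.03 and −0.09. In bulk RNA, fewer cycling cells and less RNA per cell cannot be told apart. In the joint fit with all 4 treatments of both lines, 7 genes passed an adjusted p of 0.05 in 1064, all lower. They were Mki67, Smc2, Mcm5, Mcm10, Mxd3, Ndc80 and Gdpd5.

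**Figure D3:**
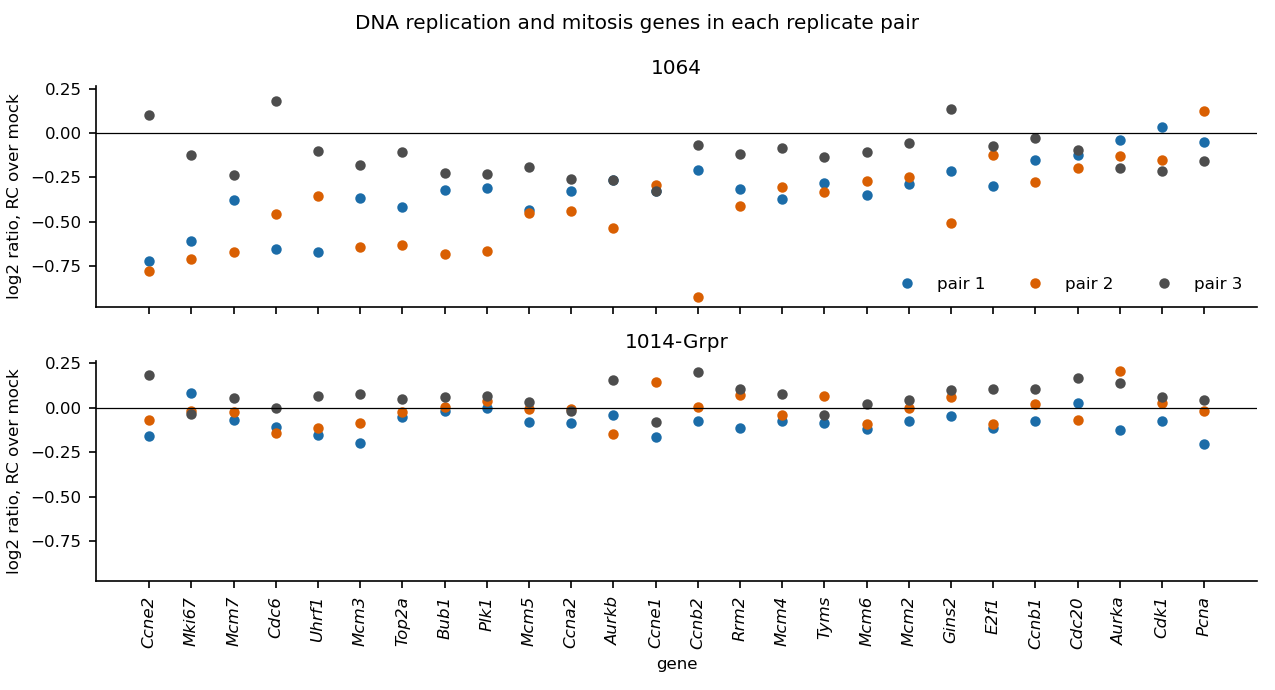
Log2 ratio of RC to mock within each replicate pair (points; colours give the pair) for 26 DNA replication and mitosis genes, ordered by their fold change in 1064, in 1064 (top) and 1014-Grpr (bottom). In 1064 most points lie below 0 and 21 genes are below 0 in every pair; in 1014-Grpr 1 gene is.

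The genes of smallest p in 1064 in the joint fit, none of which passed the adjusted threshold by edgeR, were as follows. Mxd3, a MAX partner, had the smallest p, at 8.1, 2.22 and 1.69 CPM in mock and 3.63, 1.27 and 0.898 CPM after RC (−1.02 ± 0.13, adjusted p = 0.171). Kif22 and Nusap1 of the mitotic spindle, the condensin subunit Smc2, the mismatch repair gene Msh6, the DNA glycosylase Neil3 and the cyclin Ccna2 lay between −0.92 and −0.33. Pdcd4, an inhibitor of translation, gave −0.58. On the higher side were Pak3, a p21-activated kinase (0.48 ± 0.06, with pair ratios of 0.50, 0.46 and 0.45; adjusted p = 0.171), and the nuclear long noncoding RNA Neat1. Neat1 was at 505, 356 and 477 CPM in mock against 740, 507 and 544 CPM, without overlap (0.42 ± 0.06, adjusted p = 0.18). Cd274 and Cd276, immune checkpoint ligands, gave 0.55 and 0.37, and Thap6, Dtna, Usp31, Plagl1, Cd109 and Fam219a lay between 0.23 and 0.47. Pak3 and Fam219a also passed in 1014-Grpr alone, where they rose by 0.23 and 0.18.

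The responses of the lines were then compared with each other. The lines differ in E-cadherin, with Cdh1 at a mean of 0.0462 CPM in 1064 and 2.25 CPM in 1014-Grpr. They also differ in the source and level of Grpr and in antibiotic selection. Tyr::CreA/° and the loss of Cdkn2a are given for 1064 and not for 1014-Grpr. The effects of these differences cannot be told apart in this comparison. In the joint fit, the difference of the RC effect between 1014-Grpr and 1064 passed an adjusted p of 0.05 for 0% of 12280 genes tested in both (0 by DESeq2), with 618 at an unadjusted p of 0.05. The median standard error of that difference was 0.10 on the log2 scale. For Nr4a3 the difference, 1014-Grpr minus 1064, was −0.16 with a 95% interval from −1.78 to 1.45, for Nppb −0.29 (−1.28 to 0.70) and for Lif 0.03 (−0.97 to 1.03). The interval thus holds differences of over 2-fold in either direction for Nr4a3, and in 1 direction for Nppb and Lif. For Grpr the difference was 0.56 (0.20 to 0.92, adjusted p = 0.882), and for Mxd3 1.04 (0.72 to 1.37, adjusted p = 0.492). These intervals are not adjusted for the number of genes. Without replicate 3 of 1064, the difference passed an adjusted p of 0.05 for 1200 genes, 539 higher and 661 lower in 1014-Grpr relative to 1064, and for 45 with an absolute difference above 1. For these genes the comparison of the lines thus changes with that replicate.

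The genes called in 1014-Grpr alone were followed into 1064, which shares no library with them. Of the 103 higher genes 102 were tested in 1064, of which 89 lay above 0 in that line; of the 12280 genes tested in both lines, 5920 did. Their median in 1064 was 0.24, and 0.36 without replicate 3. The pair medians were 0.36, 0.32 and −0.04. Of the 29 lower genes, 24 were below 0 in 1064, with a median of −0.21. Without replicate 3 of 1064, left out after its response was seen, 64 of the 102 passed an adjusted p of 0.05 and were higher (7.17% of all genes tested were). Of the 29, 13 passed and were lower (5.21%). Across all 12280 genes the log2 fold changes of the lines had a Pearson r of 0.12 and a Spearman rho of 0.18, given as a description. In 1014-Ctrl, 78 of the 102 higher genes tested there lay above 0, with a median of 0.07. Of the 29 lower genes 22 lay below 0, with a median of −0.08. Among all genes tested in that line 50.4% lay above 0.

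**Figure D4:**
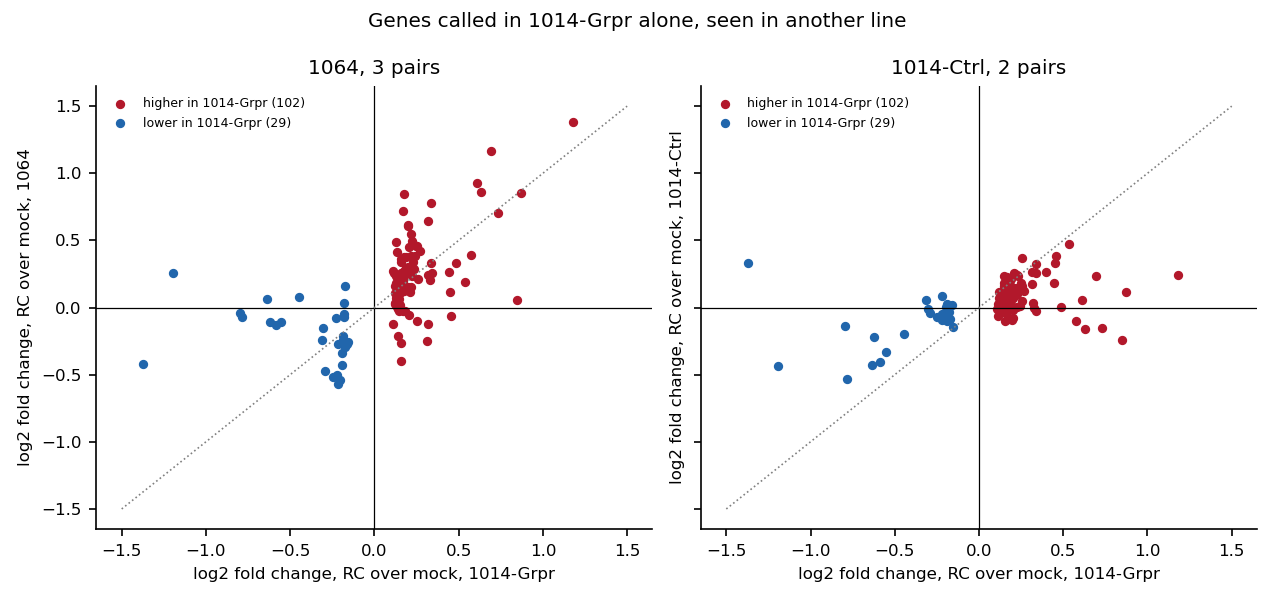
Log2 fold change of RC over mock in 1014-Grpr (horizontal axis) against that in 1064 (left panel) and 1014-Ctrl without replicate 2 (right panel), each line fitted alone, for the genes called in 1014-Grpr; the dotted line marks equal change. In 1064, 89 of 102 genes that were higher in 1014-Grpr lie above 0, with a median of 0.24, and in 1014-Ctrl 78 of 102 do, with a median of 0.07.

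Whether the small responses of 1014-Grpr differed from those of the same line without receptor was tested directly. The difference of the RC effect, 1014-Grpr minus 1014-Ctrl, passed an adjusted p of 0.05 for 7 of 13071 genes (0.0536%), all higher in 1014-Grpr, none with an absolute difference above 1. They were Nppb (difference 0.55, adjusted p = 0.0244), Tnfrsf12a, the TWEAK receptor (0.37, 0.0212), Hmga2, a chromatin architectural protein (0.33, 0.00951), Hmox1, heme oxygenase (0.31, 0.015), Sh2b3, an adaptor that restrains cytokine receptors (0.29, 0.0212), Mcam, a melanoma cell adhesion molecule (0.23, 0.0212), and Actg1 (0.21, 0.0244). These names were taken after their values were seen. Hmga2 was at 161, 129 and 200 CPM in mock and at 183, 169 and 259 CPM after RC in 1014-Grpr, a rise in each pair. In 1014-Ctrl it was at 131 and 176 CPM in mock against 126 and 184 CPM in replicates 1 and 3. Mcam was at 383, 370 and 388 CPM in mock and at 422, 440 and 478 CPM after RC in 1014-Grpr, without overlap, and at 403 and 382 CPM against 398 and 399 CPM in 1014-Ctrl. Hmox1 was the exception in its pattern. It did not pass in 1014-Grpr (0.09, adjusted p = 0.35) and fell by 0.23 in 1014-Ctrl, from 637 and 215 to 524 and 197 CPM (adjusted p = 0.0032). The count is sensitive to the method, with 0 by DESeq2 and 0 when all 12 libraries were used as labelled.

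**Figure D5:**
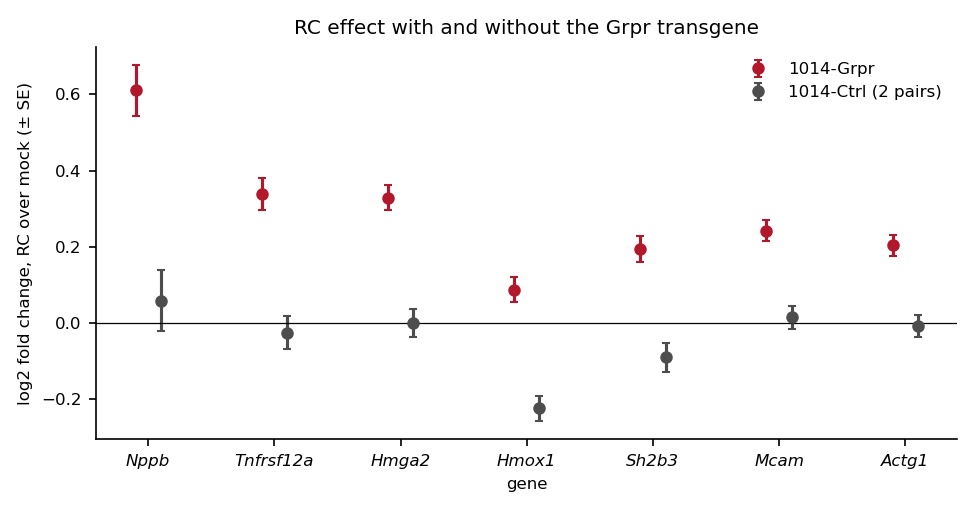
Log2 fold change of RC over mock with its standard error in 1014-Grpr (3 pairs) and 1014-Ctrl (2 pairs) for the 7 genes whose RC effect differed between them. In 1014-Ctrl all genes other than Hmox1 lie within 0.1 of 0, and in 1014-Grpr the values run from 0.09 for Hmox1 to 0.61 for Nppb.

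Other genes of 1014-Grpr did not pass that test, and some moved in both lines. Nr4a3 gave a difference of 0.94 (adjusted p = 0.113), Egr3 0.76 (0.0769) and Ccn1 0.79 (0.0769). Pde10a rose in 1014-Ctrl too, by 0.33 (adjusted p = 0.016), as did Fosl2, by 0.26 (0.0441), and their differences between the lines were 0.12 and 0.05. As lists, the tested immediate early genes had a median difference of 0.08 (25 of 30 above 0), the SRF and actin genes of 0.16 (11 of 13) and the Gq and calcium genes of 0.38 (11 of 12). In 1014-Ctrl fitted alone, 19 genes passed an adjusted p of 0.05 (0.142% of 13366), 14 higher and 5 lower (0.105% and 0.0374%), on 2 pairs.

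The lists were also read in 1181-Ctrl, the empty-plasmid version of a melanoma line from a male mouse, labelled GRPRneg. The 30 tested immediate early genes had a median log2 fold change of 0.17 after RC in 1181-Ctrl, with 29 above 0 and 15 higher and 0 lower at an unadjusted p of 0.05 (2.03% of all genes higher), though no gene passed an adjusted one. That median is above the 0.12 of 1014-Grpr. In 1181-Grpr, which carries the receptor plasmid, it was 0.02 with 18 of 31 above 0, and in 1014-Ctrl 0.06 with 19 of 30. A shift of immediate early genes after RC was thus also seen in a line without the receptor. In 1057, a line with its own Grpr, their median was 0.48, with 29 of 32 above 0. There 25 were higher and 1 lower at an adjusted p of 0.05 (15.3% and 14.4% of all genes). The Gq and calcium genes had medians of 0.12 over 10 genes in 1181-Ctrl, −0.08 over 15 in 1181-Grpr and −0.02 over 14 in 1014-Ctrl. Those of 1014-Grpr and 1057 were 0.30 and 0.54, the latter over 18 genes. Of the 26 DNA replication and mitosis genes 25 lay at or below 0 in 1181-Ctrl, with a median of −0.08. At an adjusted p of 0.05, RC alone called 0% of genes in 1181-Ctrl, 0.272% in 1181-Grpr and 29.7% in 1057 (0.766% with an absolute log2 fold change above 1 as well, 0.0730% lower). The genes higher in 1014-Grpr alone lay above 0 for 75 of 98 in 1181-Ctrl, 78 of 103 in 1181-Grpr and 91 of 101 in 1057. Their medians there were 0.05, 0.02 and 0.30, and 52.6%, 50.1% and 48.2% of all genes lay above 0. Those lower in 1014-Grpr alone had the same sign for 15 of 28, 22 of 29 and 26 of 27.

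Responses to RC were finally set beside those to the agonist. Genes called after GRP in 1057, which shares no library with these comparisons, were 673 higher and 193 lower under the call with a fold threshold. In 1014-Grpr, 447 of the 673 were tested after RC, with a median log2 fold change of 0.07 and 315 above 0. Of these 447, 42 rose and 0 fell at an adjusted p of 0.05 (0.773% of all genes rose), which is 40.8% of the 103 higher genes and 9.40% of the 447. Of the 126 tested GRP-lower genes 4 fell (0.218% of all genes fell) and the median was −0.04. In the test against 1014-Ctrl the higher list had a median of 0.06, while in 1014-Ctrl alone it was 0.01. In 1181-Ctrl, without the receptor, its median was 0.03, with 254 of 427 genes above 0 (59.5%, against 52.6% of all genes). There 39 were higher and 5 lower at an unadjusted p of 0.05 (2.03% and 2.12% of all genes). In 1181-Grpr, with the receptor, the median was 0.01, with 263 of 465 above 0. In 1064 the medians in the joint fit were 0.28 for 491 GRP-higher genes, 451 of them above 0, and −0.28 for 143 GRP-lower genes, 21 of them above 0. By pair they were 0.38, 0.40 and −0.08 for the higher list and −0.39, −0.44 and 0.09 for the lower one. The direction of RC on GRP-responsive genes was therefore that of GRP in all 3 pairs of 1014-Grpr and in pairs 1 and 2 of 1064, as medians, and the opposite in pair 3.

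Within each line the responses to RC and to 10 nM GRP share the mock libraries, so their values are only given side by side. In 1014-Grpr, GRP moved Nr4a3 by 4.57, Egr3 by 2.65, Lif by 5.43, Plaur by 4.28, Nppb by 3.57 and Ccn1 by 5.47 on the log2 scale, where RC moved them by 1.18, 0.87, 0.73, 0.69, 0.61 and 0.63. Grpr itself was 2.08 higher after GRP and 0.31 higher after RC. Pde10a was 0.13 higher after GRP (adjusted p = 0.0834) and 0.45 higher after RC. In 1064, GRP moved Nr4a3 by 3.49, Plaur by 4.27 and Nppb by 3.07, where RC gave 1.34, 1.10 and 0.90, and Mki67 by −1.10 where RC gave −0.50. Grpr in 1064 was 0.97 lower after GRP (adjusted p = 0.0129) and 0.25 lower after RC.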

How the data were processed

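RNA was measured by strand-specific, polyA-selected paired-end RNA-seq. The authors deposited raw counts per gene, made per the paper's methods and the submitters' notes by STAR on GRCm38 (mm10) with GENCODE annotation, after FastQC 0.11.5. Whether counting used strand is not given in the sources used here. TPM values that the authors deposited were read for the 12 libraries and are not printed. Symbols were found for 50376 of 50600 genes, and positions are from GENCODE vM21 (GRCm38).

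Genes were filtered per line with filterByExpr, normalised by TMM and tested with edgeR 4.0.16 (quasi-likelihood, R 4.3.3) on the 12 libraries together, with replicate number as a block within each line. The difference to 1014-Ctrl was fitted on RC and mock libraries of both 1014 versions. Calls needed a Benjamini-Hochberg adjusted p below 0.05 together with a log2 fold change beyond 1 in either direction; where no gene was called, counts at the adjusted p alone are given. DESeq2 1.42.0 and fits of each line alone were alternatives. Standard errors were derived from the F statistic (log2 fold change over root F). In 1064 and 1014-Grpr the same-numbered RC and mock libraries deviated together from their group means (r of 0.82, 0.75 and 0.65 and of 0.44, 0.56 and 0.53), so the numbers were taken to pair them. No replicates were copies (smallest chi-square per degree of freedom 13.3). The steps were tested on simulated data. Without molecular identifiers, the floors account for counting error alone.

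Named genes are Grpr and its family and, per line and direction, the 10 genes of largest fold change among those passing an adjusted p of 0.05 with at least 1 CPM, or else of smallest p, plus list members that passed; predicted models are counted only, and a few genes under the rule are not reported here. The lines, lists and rules were chosen with earlier results of these data known. Figures used matplotlib 3.10.9.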

Additional observations from a re-analysis of the deposited data

Results flagged for a closer look

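The RC effect differed between 1014-Grpr and 1014-Ctrl, by a test of the difference itself, for 7 genes. The differences on the log2 scale were 0.55 for Nppb, 0.29 for Sh2b3, 0.31 for Hmox1, 0.23 for Mcam, 0.33 for Hmga2, 0.21 for Actg1 and 0.37 for Tnfrsf12a (edgeR, adjusted p from 0.00951 for Hmga2 to 0.0244 for Nppb and Actg1). RC was above mock in 3 of 3 pairs of 1014-Grpr for these genes except Hmox1, which was above in 2. Plasmid state and clone differ between the versions of the line together with the receptor and cannot be told apart from it. Mcam, Hmga2 and Sh2b3 share exon positions with a gene on the other strand, and Actg1 with small RNA genes on the same strand.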

How the results depend on the processing

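With both lines in 1 fit, the count of called genes, 0 in each line and 0 for their difference, stayed at 0 without the replicate block, at the adjusted p alone and with DESeq2's size factors. DESeq2 with the block called 3 in 1064 (Pgf, Rims2 and Cxcl10), the fit with all 4 treatments 1, and the fit without a filter on low counts 32 in 1064, 2 in 1014-Grpr and 12 for the difference. The line alone gave 3 in 1014-Grpr. Leaving out replicates gave 0 to 118 in 1064, 0 to 1 in 1014-Grpr and 0 to 45 for the difference; the highest of each came without replicate 3 of 1064, as did all values above 0. The difference at the adjusted p alone went from 0 to 1200 without that replicate.

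At the adjusted p alone, 1064 alone gave 0, and from 0 to 1656 when replicates were left out. The count of 132 in 1014-Grpr alone became 0 with no replicate block (128 genes at unadjusted p under 0.05), 35 by DESeq2, 3 with the threshold on the fold change, and 31 to 155 when replicates were left out, lowest without replicate 2 and 60 without replicate 1. All 132 genes kept their sign in each such fit. They were called on these same libraries, and 102 of the 103 higher and 29 of the 29 lower genes had that sign in all 3 pairs. Nothing is therefore read from the kept signs. The difference between 1014-Grpr and 1014-Ctrl, 0 with the fold threshold and 7 at the adjusted p alone, gave 1 and 51 without the filter, and the 7 became 0 with no replicate block, by DESeq2, with all 4 treatments and with all 12 libraries as labelled, and 0 to 15 when replicates were left out, 0 without replicate 2 of 1014-Grpr or replicate 1 of 1014-Ctrl, 3 without replicate 3 of 1014-Ctrl, 4 without replicate 3 and 15 without replicate 1 of 1014-Grpr. The cause of these changes was not tested. For the genes named by the rule, each in the line that named it, no alternative run turned a direction. Those runs share libraries with the fits that chose the genes, so nothing is read from that either. Other genes given in 1064, such as Nr4a3, Sphk1 and Mki67, were not run under every alternative. Depth limits genes under about 1 CPM, such as Ptgs2.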
